A study of Mus musculus with 9 samples.

Results

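The genes of branched-chain amino acid breakdown were followed in the hearts of NSG male mice, an immunodeficient strain without mature lymphocytes that accepts human tumour cells. The set holds 10 genes, Bcat2, Bckdha, Bckdhb, Dbt, Bckdk, Ppm1k, Ivd, Mccc1, Mccc2 and Hibch, chosen by symbol from the 13890 genes of the count table, and all 10 passed the filter on low counts. The mice were 8 weeks old, and the labels place the collection 3 weeks after surgery. Group S held the sham-operated mice (animals 2, 3 and 5), group T mice with HCT116 cells, a human colorectal cancer line, placed in the spleen (animals 11, 12 and 15), and group A + T mice with the same cells that also received ACVR2B/Fc every week (animals 20, 21 and 22). ACVR2B/Fc is a soluble activin receptor joined to an antibody Fc fragment, which captures activins, myostatin and related ligands. All mice shared the NSG background and an operation on the spleen. No library with a label of ACVR2B/Fc alone was analysed here. The contrasts asked whether cardiac transcripts differ between tumour hosts and sham mice, and whether the ligand trap alters that difference.

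The libraries labelled T did not match the study's own gene list under that label. Over the genes listed as changed, their difference from S followed the column given for ACVR2B/Fc without a tumour. It did not follow the column given for tumour hosts. A wrong library label and a wrong column heading would give the same match, and which of these holds was not tested. These libraries are therefore called the libraries labelled T, or T for short, and every direction stated for T describes those libraries and not tumour hosts as such. The contrasts of T with S and of A + T with T compare these libraries directly. That of A + T with S does not, but all 9 libraries enter its fit through the shared estimate of the spread.

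Leucine, isoleucine and valine are broken down in mitochondria by a shared pair of steps followed by separate routes. Bcat2 encodes the mitochondrial aminotransferase that turns them into branched-chain keto acids, and the branched-chain keto acid dehydrogenase complex then removes a carboxyl group in a step that cannot be undone. Bckdha and Bckdhb encode the decarboxylase subunits of that complex, Dbt its acyltransferase core, and Dld a dehydrogenase that the pyruvate and 2-oxoglutarate complexes use as well. The kinase encoded by Bckdk switches the complex off by phosphorylation, and the phosphatase encoded by Ppm1k switches it on. Further down, Ivd and the carboxylase of Mccc1 and Mccc2 act on leucine, and Hibch acts on valine. The heart oxidizes branched-chain keto acids, and in mice loss of Ppm1k leads to their build-up.

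Promoter sequence is given for Ppm1k and Mccc2, the members that passed the adjusted threshold in a comparison below, and for Bckdk, whose product opposes that of Ppm1k. Each run covers the 250 bases before the RefSeq start site on GRCm38.p6 (the mm10 assembly), written 5′ to 3′ on the strand of the gene, which is the minus strand for Ppm1k (chr6:57535488-57535737) and Mccc2 (chr13:100015640-100015889) and the plus strand for Bckdk (chr7:127903823-127904072). Capitals mark every match, on either strand, to the letters CCAAT of the CCAAT box, to CCGCCC, called a GC box here, or to the letters CACCC of the CACCC box.
Ppm1k: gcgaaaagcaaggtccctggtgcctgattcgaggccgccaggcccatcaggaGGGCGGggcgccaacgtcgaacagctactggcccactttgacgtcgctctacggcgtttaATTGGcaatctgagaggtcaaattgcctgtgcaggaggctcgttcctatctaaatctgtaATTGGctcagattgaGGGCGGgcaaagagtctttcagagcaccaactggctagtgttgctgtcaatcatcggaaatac
Mccc2: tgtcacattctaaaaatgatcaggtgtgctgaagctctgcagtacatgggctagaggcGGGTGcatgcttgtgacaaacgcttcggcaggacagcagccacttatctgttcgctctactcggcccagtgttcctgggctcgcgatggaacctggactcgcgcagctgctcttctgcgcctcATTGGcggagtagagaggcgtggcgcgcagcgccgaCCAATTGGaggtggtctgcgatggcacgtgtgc
Bckdk: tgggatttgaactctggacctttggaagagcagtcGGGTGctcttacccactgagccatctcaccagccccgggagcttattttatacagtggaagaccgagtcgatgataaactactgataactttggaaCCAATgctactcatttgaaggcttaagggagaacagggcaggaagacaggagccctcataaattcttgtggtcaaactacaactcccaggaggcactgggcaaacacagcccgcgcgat
The Ppm1k window held 2 CCAAT box matches and 2 GC box matches. The Mccc2 window held 3 CCAAT box matches, of which a pair on opposite strands overlapped by 2 bases, and 1 CACCC box match, and the Bckdk window held 1 of each of these. The 9 members other than Dbt were matched to 11 windows in all. The CCAAT box was matched in 6 of these windows, the CACCC box in 6 and the GC box in 4. Among 32851 promoter windows of that length, 33.8% held the CCAAT box, 32.7% the GC box and 52.0% the CACCC box. These are matches of letters and not binding sites. In the GENCODE annotation of GRCm38, Ppm1k spans chr6:57506502-57535468, Mccc2 chr13:99948530-100015639 and Bckdk chr7:127904082-127910221, and the counts cover the exons of each gene as a whole.

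Counts on genes totalled 12392222 to 19732471 in a library, of which 4.57% to 19.6% fell on Rn45s, a ribosomal RNA gene that varied within each group, and 3 counts, the smallest number read as a level, stood for 0.152 to 0.242 CPM (counts scaled to the size of the library). Member genes had between 684 and 6790 counts in a library. Levels below are CPM after the trimmed mean normalization of edgeR (TMM), means are ± SD (n = 3 animals per group), and a member is called when edgeR's quasi-likelihood test over the 13364 genes tested gave a P-value under 0.05 after Benjamini-Hochberg adjustment. The defining markers of heart muscle were abundant in every library, where the summed level of 7 cardiomyocyte genes lay at 62430 to 67828 CPM in S, at 50928 to 60690 in T and at 45838 to 62937 in A + T. Single markers went both ways in T vs. S, where edgeR called 2 of the 7 higher (Tnnt2 and Pln) and 1 lower (Actc1). In whole-heart RNA fewer cells of a type and less RNA per cell cannot be told apart.

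In the libraries labelled T, Ppm1k was 25.9% higher and Mccc2 15% lower than in S, and the other 8 members did not pass the adjusted test. The 2 called members compare with 21.2% of all genes tested in the same contrast, so members were called about as often as genes in general. No member passed the thresholds used by the study, an unadjusted P-value under 0.05 together with a change of at least 1.5-fold, which 14.2% of all genes passed. The groups did not overlap for 4 members, Ppm1k, Ivd, Mccc2 and Hibch, against 42.6% of all genes. Every 95% interval of a member in T vs. S lay within a 1.5-fold change in either direction. Over the members the median log2 fold change was −0.03 and the median size 0.07, beside −0.00 and 0.23 over all genes. The biological coefficient of variation between animals of a group ran in the fit from 0.0735 for Bckdk to 0.103 for Ivd. Its median was 0.0904 over the members and 0.120 over all genes tested, and 35.9% of genes had a lower value than Ivd. The median was 0.0859 over 16 further genes of the pathway and 0.0958 over 14 tricarboxylic acid cycle enzymes.

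**Figure D1:**
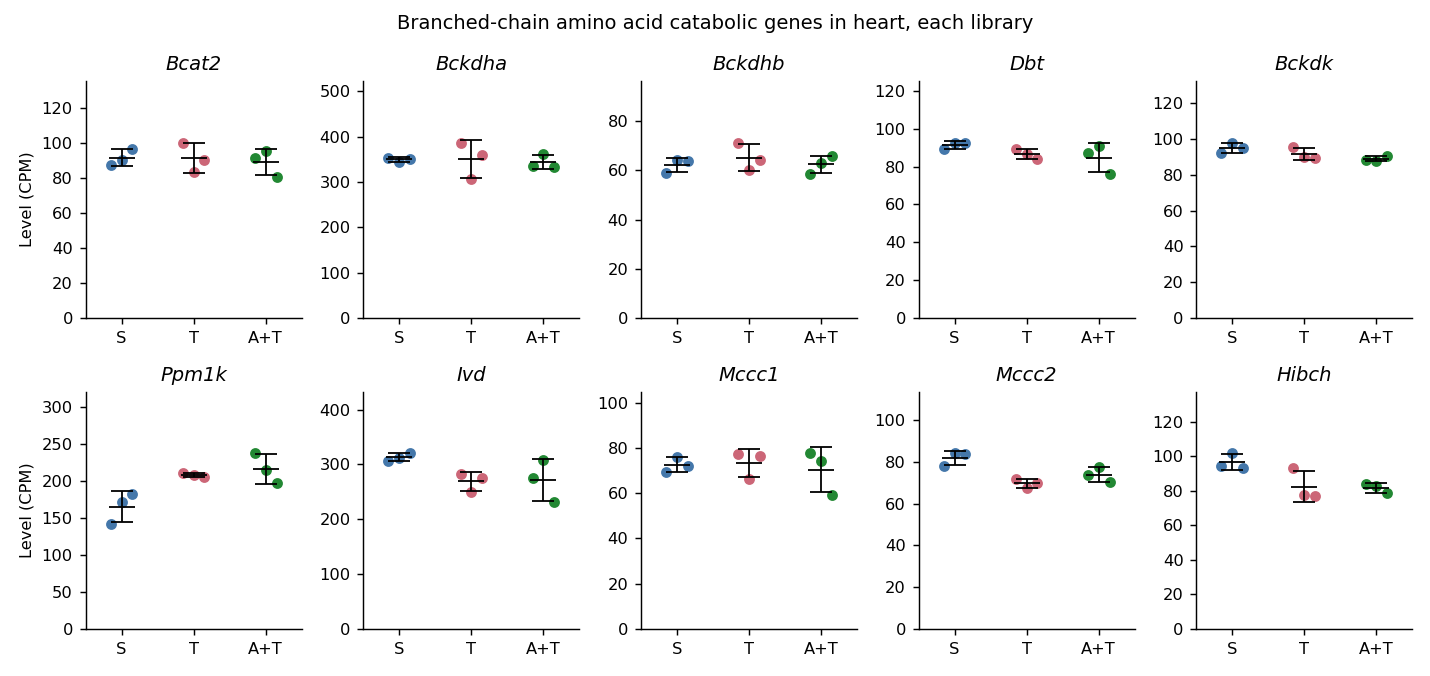
Level of each of the 10 genes in CPM (vertical axes, each starting at 0) in every library of S, T and A + T; points are animals and bars the group mean ± SD. Ppm1k is at 142 to 182 CPM in S and at 206 to 211 in T, whereas Bckdha is near 350 CPM in each group.

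The transamination step showed no called difference. Bcat2 was at 87.8, 90.6 and 97.0 CPM in S, at 100.5, 83.5 and 90.7 in T and at 91.4, 95.4 and 80.9 in A + T. The 3 groups overlapped throughout, and T differed from S by a log2 fold change of −0.00 with a 95% interval of −0.21 to 0.20 (edgeR adjusted P = 0.984). As a fold this interval ran from 0.865 to 1.15.

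The subunits that are particular to the dehydrogenase complex, Bckdha, Bckdhb and Dbt, also overlapped between groups. Bckdha, the member with the most counts, was at 354, 345 and 351 CPM in S, at 387, 306 and 359 in T and at 336, 361 and 333 in A + T. Mean levels were 350 ± 4.81 CPM for S, 351 ± 41.3 for T and 343 ± 15.4 for A + T. The means lay close together and the SD was largest in T, but the spread was not tested. Bckdhb, its partner subunit, was at 59.1, 64.0 and 63.8 CPM in S, at 71.3, 60.3 and 64.0 in T and at 58.7, 62.9 and 65.7 in A + T. In T vs. S the log2 fold changes were 0.00 for Bckdha (edgeR adjusted P = 0.990) and 0.07 for Bckdhb (adjusted P = 0.616). Dbt, the core of the complex, was at 89.2, 92.5 and 92.7 CPM in S, at 89.5, 86.6 and 84.1 in T and at 87.0, 91.0 and 76.2 in A + T. Its log2 fold change was −0.08 in T vs. S (95% interval −0.25 to 0.10; edgeR adjusted P = 0.533) and −0.11 in A + T vs. S (adjusted P = 0.410). Dld, the dehydrogenase shared with the sister complexes, lay at 526 to 562 CPM in S and at 506 to 522 in T without overlap, and differed in T vs. S by −0.08 on the log2 scale (edgeR adjusted P = 0.527).

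The phosphatase of the complex was called in both comparisons with S and the kinase in none, while the test of their ratio, given further on, could not pass at this group size. Ppm1k, the phosphatase, was at 142, 172 and 182 CPM in S, at 211, 209 and 206 in T and at 238, 215 and 198 in A + T. Each T and each A + T library lay above each S library, and T varied least, while animal 2 was the lowest of S. Mean levels were 166 ± 20.9 CPM for S, 209 ± 2.37 for T and 217 ± 20.2 for A + T. Ppm1k rose in T vs. S by 0.33 on the log2 scale (standard error 0.10, 95% interval 0.10 to 0.56, edgeR adjusted P = 0.0446). It also rose in A + T vs. S, by 0.39 (standard error 0.10, 95% interval 0.16 to 0.62, edgeR adjusted P = 0.0462), where 8.31% of all genes were called. Bckdk, the kinase, was at 92.0, 97.9 and 94.7 CPM in S, at 95.7, 89.8 and 89.2 in T and at 88.3, 87.7 and 90.3 in A + T. Its A + T libraries all lay below S, but the log2 fold change was −0.10 (95% interval −0.24 to 0.05, edgeR adjusted P = 0.396), and in T vs. S it was −0.05 (adjusted P = 0.624).

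The Ppm1k calls were close to the threshold. With animals left out in turn, the difference between T and S stayed between 0.24 and 0.41 but the edgeR call held in 3 of 9 fits. Those were the fits without animal 5 of S and without animal 20 or 22 of A + T, a group not compared in T vs. S. The call was lost without animal 2 (0.24, adjusted P = 0.137), 3 (0.36, 0.0856), 11 (0.32, 0.114), 12 (0.33, 0.0891), 15 (0.35, 0.0767) or 21 (0.33, 0.0604). In A + T vs. S the value stayed between 0.30 and 0.46 and the call held in 1 of 9 fits, the fit without animal 22 (adjusted P = 0.0273), while the other 8 gave adjusted P-values from 0.0564 to 0.142. Fitted with the S and A + T libraries alone, Ppm1k had the same difference of 0.39 and an edgeR adjusted P of 0.0827.

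The level of Ppm1k relative to Bckdk was compared within each library, which removes the scaling between libraries. Ppm1k over Bckdk, as a ratio of CPM, was 1.55, 1.76 and 1.93 in the S animals, 2.20, 2.32 and 2.31 in the T animals and 2.70, 2.45 and 2.19 in the A + T animals. The ratio was 1.31-fold higher in T than in S and 1.40-fold higher in A + T than in S, with no overlap between groups in either case. A two-sided exact permutation test of the log2 ratio gave P = 0.1 for both, the smallest value that 3 animals against 3 allow, and 0.2 after adjustment over the 6 ratio tests. A + T and T overlapped (exact permutation P = 0.5). A ratio within a library shows unequal levels and does not say which transcript moved, and transcripts of the kinase and phosphatase do not measure the phosphorylation of the complex.

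**Figure D2:**
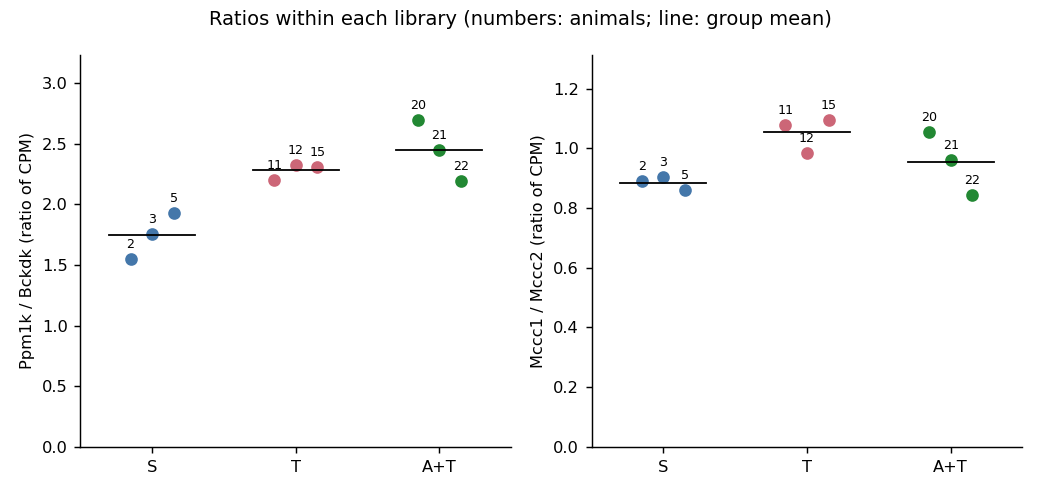
Ratio of Ppm1k to Bckdk (left) and of Mccc1 to Mccc2 (right), each as CPM over CPM in the same library, by group; points are animals with their numbers and lines are group means. The Ppm1k to Bckdk ratio is 1.55 to 1.93 in S and 2.19 or more in each other library.

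On the leucine route Mccc2 was called in T vs. S and Mccc1 was not, and the test of the difference between them, given with their ratio, did not pass. Mccc2, the subunit that does not carry biotin, was at 78.0, 84.1 and 83.6 CPM in S, at 71.6, 67.4 and 69.9 in T and at 73.6, 77.4 and 70.2 in A + T. All T and all A + T libraries were below all S libraries, with means of 81.9 ± 3.38 CPM for S, 69.6 ± 2.09 for T and 73.7 ± 3.61 for A + T. Mccc2 fell by 0.23 on the log2 scale in T vs. S (standard error 0.07, 95% interval −0.39 to −0.08, edgeR adjusted P = 0.0396). In A + T vs. S its log2 fold change was −0.15 (95% interval −0.31 to 0.01, edgeR adjusted P = 0.204). Mccc1, the biotin-carrying subunit, was at 69.5, 76.1 and 72.0 CPM in S, at 77.3, 66.4 and 76.5 in T and at 77.6, 74.3 and 59.2 in A + T. Its groups overlapped, and its log2 fold change in T vs. S was 0.02 (95% interval −0.22 to 0.26, edgeR adjusted P = 0.930).

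The log2 fold change of Mccc2 in T vs. S stayed between −0.26 and −0.21 with an animal left out. Its call held in 2 of the 9 fits, those without animal 21 or 22 of A + T, a group not compared there. It was lost without animal 2 (−0.26, edgeR adjusted P = 0.0595), 3 (−0.21, 0.120), 5 (−0.22, 0.116), 11 (−0.26, 0.0735), 12 (−0.21, 0.110), 15 (−0.23, 0.0905) or 20 (−0.23, 0.0562). The ratio of Mccc1 to Mccc2 was 0.890, 0.905 and 0.861 in the S animals, 1.08, 0.985 and 1.10 in the T animals and 1.05, 0.960 and 0.844 in the A + T animals. T lay above S without overlap, 1.19-fold higher (two-sided exact permutation P = 0.1, the smallest possible, and 0.2 after adjustment over the 6 tests). A + T overlapped both other groups (exact permutation P = 0.2 against T and 0.4 against S).

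Ivd, the dehydrogenase of isovaleryl-CoA ahead of the carboxylase, was at 306, 313 and 320 CPM in S, at 282, 250 and 276 in T and at 276, 308 and 232 in A + T. T lay below S in each library, yet the log2 fold change of −0.22 (95% interval −0.45 to 0.02) had an edgeR adjusted P of 0.167, and A + T overlapped S (−0.20, adjusted P = 0.247). Hibch, which releases 3-hydroxyisobutyrate on the valine route, was at 94.3, 102 and 93.4 CPM in S, at 93.1, 77.4 and 77.2 in T and at 84.2, 82.9 and 78.7 in A + T. All T and A + T libraries were below S, although animal 11 of T missed the lowest S library by less than 1 CPM. It differed by −0.22 in T vs. S on the log2 scale (95% interval −0.42 to −0.03, unadjusted P = 0.0281 and adjusted P = 0.0965 from edgeR) and −0.24 in A + T vs. S (95% interval −0.43 to −0.04, adjusted P = 0.122). Without animal 11 the T vs. S value was −0.32 with an edgeR adjusted P of 0.0320, the 1 fit of 18 alternatives in which Hibch was called.

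No member was called in A + T vs. T. edgeR, DESeq2 and limma-voom each called 0 of 10, and 0 had an unadjusted P-value under 0.05 in the edgeR fit, beside 5.88% of all genes called. The log2 fold changes ran from −0.06 for Bckdhb to 0.08 for Mccc2 (edgeR adjusted P = 0.708 and 0.539). The 95% intervals of all members together spanned −0.30 to 0.29, within a 1.5-fold change. No member passed the study's thresholds, which 8.11% of all genes did, and the groups overlapped for all 10, whereas 25.4% of genes did not overlap. Ppm1k differed by 0.06 (95% interval −0.17 to 0.29, edgeR adjusted P = 0.789). In A + T vs. S 1 member was called, against 8.31% of all genes. None passed the study's thresholds there, against 8.91%, and 4 members did not overlap (Bckdk, Ppm1k, Mccc2 and Hibch) against 32.4%. Since the comparisons share libraries, values for a gene in different comparisons are not independent of each other.

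**Figure D3:**
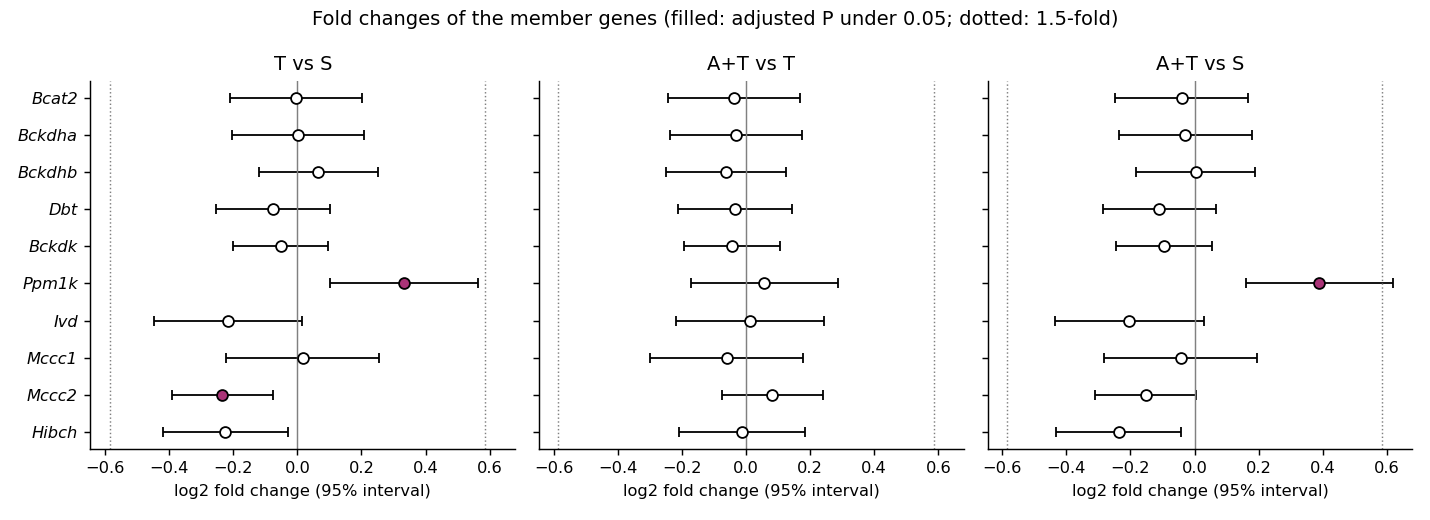
Log2 fold change of each gene with its 95% interval for T against S, A + T against T and A + T against S; filled points have an adjusted P-value under 0.05 and dotted lines mark a 1.5-fold change. Ppm1k is filled in both comparisons with S (0.33 and 0.39), Mccc2 only in T vs. S (−0.23), and no point is filled in A + T vs. T.

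Within groups the members moved together by library. Animal 11 had the highest level of the T group for 10 of 10 members, and animal 22 the lowest of A + T for 8 of 10, with Bckdhb and Bckdk as the exceptions. In S, animal 2 was lowest for 8 of 10. The place of animal 11 was not particular to the members. Of 14 tricarboxylic acid cycle enzymes, all but Sdhd were also highest in animal 11 within T. So were 16 further pathway genes apart from Bcat1 and Acad8. The share of all genes with such an order was not counted. As a percentage of the mean of S, the median level of the members was 103.7% in animal 11, 91.3% in animal 12 and 96.4% in animal 15, and 94.7%, 100.2% and 86.9% in animals 20, 21 and 22. The summed cardiomyocyte markers stood in the same order within these groups, at 60690, 50928 and 54644 CPM in animals 11, 12 and 15 and at 62298, 62937 and 45838 in animals 20, 21 and 22. In S they were not in that order, since animal 2 had the highest sum, at 67828 CPM. The sum did not stand for each marker. In A + T, animal 22 was lowest for Myh6, Tnnt2, Actc1, Ryr2 and Pln. It was highest for Tnni3 and Myl2, at 4377 and 7140 CPM. The members' levels and the marker sum are shares of the same library, and the part of the cardiomyocyte content in the members' values was not tested.

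Markers of other cell types differed between groups as well. The counts called below stand beside 21.2% of all genes in T vs. S and 8.31% in A + T vs. S. The summed level of 5 fibroblast genes lay at 1334 to 1535 CPM in S, at 805 to 934 in T and at 1024 to 1493 in A + T, and 5 of 5 were called lower in T vs. S. Of 4 endothelial genes 3 were called lower in T vs. S, and their sum lay at 676 to 795 CPM in S, at 384 to 488 in T and at 513 to 609 in A + T. The sum of 5 macrophage genes lay at 142 to 157 CPM in S, at 150 to 174 in T and at 217 to 278 in A + T, and 5 of 5 were called higher in A + T vs. S. Atrial genes summed to between 3000 and 3084 CPM in S but from 861 to 4554 in T and 793 to 2055 in A + T. Airway genes summed to 104 CPM in animal 12 and 1278 in animal 22 and to at most 2.39 in the other libraries. Adipocyte genes reached 78.1 CPM in animal 12 and stayed at or under 18.4 elsewhere, and hepatocyte genes stayed at or under 15.6 throughout. Tnnt3 and Actn3, genes of fast skeletal muscle, summed to at most 2.59 CPM, and Alas2, an erythroid gene, ranged from 68.4 to 341 CPM without following the groups. The skeletal muscle myosins Myh1, Myh2 and Myh4 were not analysed here. Without animal 12 Ppm1k, Mccc2 and Hibch differed in T vs. S by 0.33, −0.21 and −0.18, and without animal 22 Ppm1k differed in A + T vs. S by 0.46. These fits leave out the animals with the highest airway or adipocyte sums and do not address the fibroblast, endothelial or macrophage markers. The part of cell composition in the members' values was not tested.

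Levels were compared between members on the deposited log2 values, which were read as scaled by gene length. That reading was not tested, and the order between members depends on it. In S the order was Bckdha (7.62 ± 0.02 on the log2 scale per kb), Ivd (7.23 ± 0.03), Hibch (5.81 ± 0.07), Bcat2 (5.37 ± 0.07), Mccc2 (5.26 ± 0.06), Bckdhb (5.26 ± 0.07), Bckdk (5.05 ± 0.05), Ppm1k (4.88 ± 0.19), Dbt (4.79 ± 0.03) and Mccc1 (4.60 ± 0.07). The ranges over S animals overlapped between the neighbours Mccc2 and Bckdhb, Bckdk and Ppm1k, and Ppm1k and Dbt, and not between the other neighbours. The ends of the order were the same in all groups, with Bckdha and Ivd on top and Dbt and Mccc1 at the foot. Ppm1k stood at rank 8 in S, at rank 6 in T (5.223 ± 0.018) and at rank 5 in A + T (5.27 ± 0.14). Bckdha, the decarboxylase alpha subunit, was 7.61 ± 0.18 in T against 5.32 ± 0.12 for its partner Bckdhb, so the subunits of this complex differed widely in transcript level per length in T as in S.

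**Figure D4:**
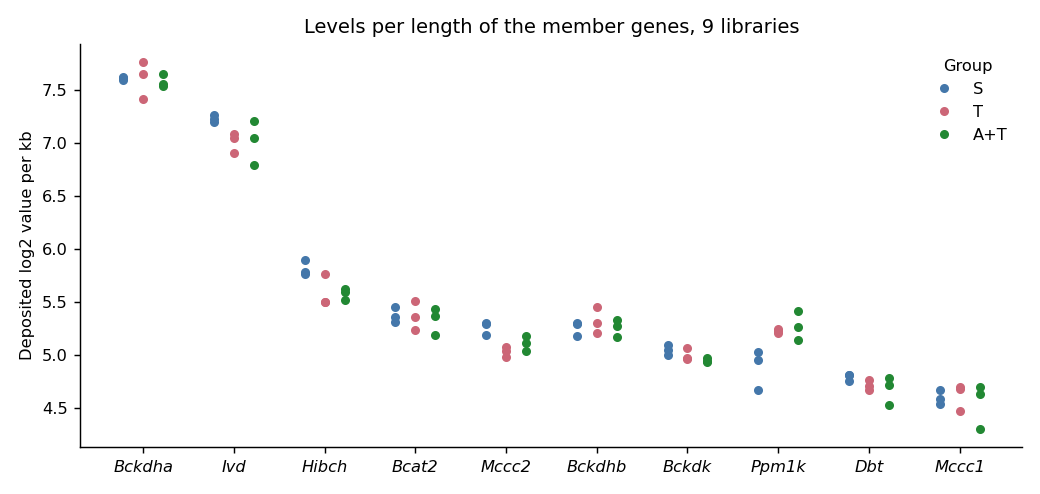
Deposited log2 value of each gene, read as per kb (vertical axis), in the 9 libraries, coloured by group and ordered by the mean in S. Bckdha and Ivd lie at 6.80 or above in every library, and Ppm1k is the gene that changes rank most between S (4.88) and A + T (5.27).

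The other genes of the pathway were read in the same way. Of 16 further genes of branched-chain amino acid breakdown, 1 was called higher and 1 lower in T vs. S, with a median log2 fold change of −0.04. Over all genes 21.2% were called there. In A + T vs. T 1 of the 16 was called lower, beside 5.88% of all genes called. In A + T vs. S edgeR called 8.31% of all genes. There edgeR, DESeq2 and limma-voom called 0 of the 16, with 3 at an unadjusted P-value under 0.05 in edgeR. Acadsb, the short/branched-chain acyl-CoA dehydrogenase of the isoleucine route, was at 169, 191 and 183 CPM in S, at 254, 249 and 244 in T and at 198, 203 and 189 in A + T. The T libraries lay above all others, whereas the ranges of S and A + T overlapped. Acadsb rose in T vs. S by 0.46 on the log2 scale (standard error 0.07, edgeR adjusted P = 0.00232, 9 of 9 fits with an animal left out) and fell by 0.34 in A + T vs. T (adjusted P = 0.0284). That fall held in 3 of 9 fits, the highest adjusted P being 0.107 without animal 11, and A + T vs. S gave 0.12 (adjusted P = 0.342). Bcat1, the cytosolic aminotransferase, was scarce at 2.21, 1.93 and 2.46 CPM in S, at 0.867, 1.37 and 1.03 in T and at 1.36, 0.933 and 1.29 in A + T. It fell in T vs. S to 0.501 of its level in S (edgeR adjusted P = 0.0258), a call kept in 5 of 9 fits with an animal left out (highest adjusted P = 0.0942, without animal 11). Slc25a44, a mitochondrial carrier of branched-chain amino acids, differed by −0.09 in T vs. S (edgeR adjusted P = 0.453).

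The sister complexes share the architecture of the branched-chain complex and have kinases and phosphatases of their own. Of 12 genes of the pyruvate and 2-oxoglutarate dehydrogenase complexes, 3 were called higher and 2 lower in T vs. S (7 by DESeq2 and 4 by limma-voom), where 21.2% of all genes were called. edgeR called 0 in A + T vs. T (1 had an unadjusted P-value under 0.05, DESeq2 called 1 and limma-voom 0), and 2 higher (Pdk4 and Pdp2) and 1 lower (Pdhx) in A + T vs. S (4 in all by DESeq2 and 3 by limma-voom, against 8.31% of all genes). Pdp2, named here after its values were seen, encodes a phosphatase of pyruvate dehydrogenase and rose by 0.68 on the log2 scale in A + T vs. S (edgeR adjusted P = 0.0433, 3 of 9 fits with an animal left out, highest adjusted P = 0.147 without animal 2). Pdhx fell by 0.39 there (adjusted P = 0.0147, 7 of 9 fits). Pdk4, a kinase that switches off pyruvate dehydrogenase, was at 126, 259 and 597 CPM in S, at 3867, 1558 and 2436 in T and at 2076, 2465 and 2556 in A + T. It was 8.01-fold higher in T than in S (log2 3.00, standard error 0.50, edgeR adjusted P = 0.00263) and 7.23-fold higher in A + T than in S (adjusted P = 0.0102), whereas Bckdk, its counterpart on the branched-chain complex, was not called in any comparison. The size of the Pdk4 rise depended on animal 5 of S, without which it was 13.6-fold in T vs. S and 12.3-fold in A + T vs. S, and the A + T vs. S call was lost without animal 3 (6.55-fold, edgeR adjusted P = 0.0555). In T vs. S Pdk1, another such kinase, rose by 0.31 (edgeR adjusted P = 0.0214) and Pdp1, a phosphatase of the same complex, by 0.33 (adjusted P = 0.0473). Pdhb, a decarboxylase subunit, fell by 0.33 (edgeR adjusted P = 0.0185), and Pdhx, a structural subunit, fell by 0.25 (adjusted P = 0.0388). With an animal left out in turn the T vs. S call held in 9 of 9 fits for Pdk4, 6 for Pdhb, 5 for Pdk1, 3 for Pdhx and 2 for Pdp1. The highest edgeR adjusted P was 0.155 for Pdp1, without animal 12, 0.123 for Pdhx and 0.0773 for Pdhb, both without animal 3, and 0.0914 for Pdk1, without animal 5. Of 14 enzymes of the tricarboxylic acid cycle edgeR called none in any comparison (1 had an unadjusted P-value under 0.05 in T vs. S, 0 in A + T vs. T and 2 in A + T vs. S), while DESeq2 called 1 in T vs. S and limma-voom 0. Their median log2 fold change in T vs. S was −0.05.

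**Figure D5:**
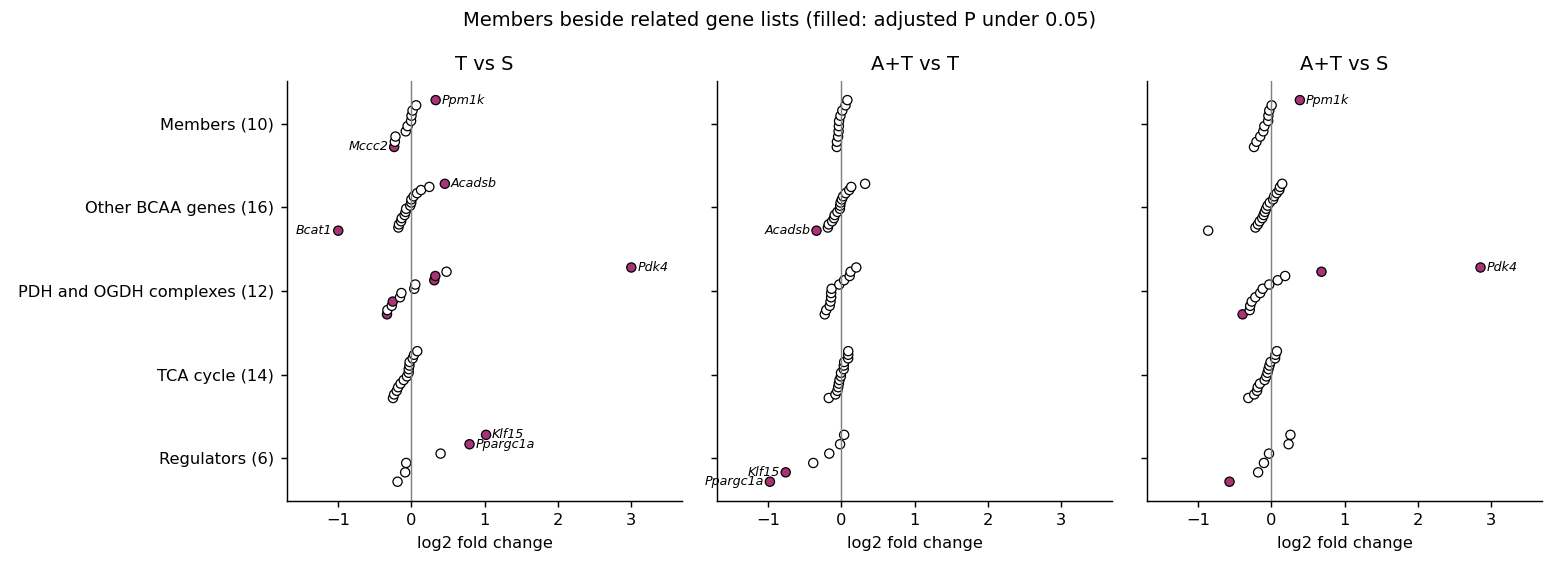
Log2 fold change (horizontal axes) of the 10 members and of 16 other genes of branched-chain amino acid breakdown, 12 of the pyruvate and 2-oxoglutarate complexes, 14 of the tricarboxylic acid cycle and 6 regulators; filled points have an adjusted P-value under 0.05. Pdk4 lies at 3.00 in T vs. S, far from the members, which lie between −0.23 and 0.33.

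Of 6 regulators of oxidative metabolism 2 were called higher in T vs. S, beside 21.2% of all genes called. Both were called lower in A + T vs. T, beside 5.88% of all genes called. Klf15, a transcription factor known to favour branched-chain amino acid breakdown in heart, was at 42.5, 40.0 and 48.9 CPM in S, at 76.4, 116.4 and 73.0 in T and at 44.7, 51.1 and 61.4 in A + T. The T libraries were above all others. Klf15 rose by 1.02 on the log2 scale in T vs. S (standard error 0.18, edgeR adjusted P = 0.00340, 9 of 9 fits with an animal left out) and fell by 0.76 in A + T vs. T (adjusted P = 0.0367, 2 of 9 fits, highest adjusted P = 0.102 without animal 20). Ppargc1a, a coactivator of mitochondrial genes, was at 157, 189 and 206 CPM in S, at 375, 213 and 370 in T and at 192, 177 and 118 in A + T. It rose by 0.79 in T vs. S (edgeR adjusted P = 0.0325, 4 of 9 fits) and fell by 0.97 in A + T vs. T (adjusted P = 0.0367, 2 of 9 fits), and both calls were lost without animal 11 (adjusted P = 0.118 and 0.143). In A + T vs. S 1 regulator was called, Ppara, a nuclear receptor of fatty acid oxidation named here after its values were seen, which fell by 0.57 (edgeR adjusted P = 0.0223, 6 of 9 fits, highest adjusted P = 0.0961 without animal 2). Over all genes 8.31% were called in that comparison. Among the members only Ppm1k was called higher in T vs. S, and none was called in A + T vs. T. Whether these regulators act on the members in these hearts was not tested.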

How the data were processed

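RNA sequencing of 9 hearts of NSG male mice was used, with 3 animals per group and the groups and animal numbers taken from the labels. The authors sequenced paired ends, aligned them to mm10 with STAR, counted strand-matched pairs on RefSeq genes with featureCounts and deposited raw counts per gene. The 3443 empty lines of the table held no counts. The authors also deposited log2 normalized values, which differed from log2 CPM by a constant for each gene (median SD 1.66e-05). They were read as scaled by gene length, and the constants were not tested against gene lengths.

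The study's filter, which drops a gene when over 4 of the 9 libraries have a CPM under 0.5, removed 526 of 13890 genes. Comparisons used edgeR 4.0.16 (R 4.3.3) with TMM, the quasi-likelihood test, all 9 libraries in the fit and Benjamini-Hochberg adjustment over 13364 genes. A standard error is the log2 fold change over the square root of F. The edgeR steps were tested on simulated data. Ratios were tested by exact permutation (scipy 1.17.1). Alternatives were DESeq2 1.42.0, limma-voom (limma 3.58.1), upper-quartile or library-size scaling, other filters, no Rn45s, the deposited values with limma, the compared groups alone, and each animal left out. For each comparison, the 9 fits with an animal left out include 3 that drop an animal of the group not compared.

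The libraries held 12392222 to 19732471 counts, and limits in counts cover counting error only, as reads carried no molecular identifiers. The edgeR P-values set a group difference against the spread between animals, which the labels number separately. That spread was estimated over all 3 groups, with information shared between genes. The ratio P-values come from exchanging animals between groups. The members and gene lists were chosen with earlier results of these data known. The genes named are the 10 members, every gene of the other pathway list, the sister complexes and the regulators called in T vs. S or A + T vs. T, up to 6 a list, and Bcat1, Dld, Slc25a44 and Klf15. Promoters came from RefSeq (GRCm38.p6). Exons of Bcat2, Bckdha and Mccc1 overlap antisense genes, which counting by strand keeps apart, and none overlaps a gene on its own strand.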

Additional observations from a re-analysis of the deposited data

How the results depend on the processing

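The standard errors of the members' log2 fold changes were 0.07 to 0.11, differences of −0.22 (Ivd, Hibch) were not called in T vs. S with 3 animals per group, and the calls of Ppm1k and Mccc2 lay near the threshold. T vs. S called 2 members, 1 with upper-quartile scaling (Mccc2), 0 with library size only, and 0 to 2 with an animal left out. Of 13364 genes it called 2838 in the main fit, 2838 with upper-quartile scaling and 1636 with library size only. A + T vs. S called 1, but 0 with library size only or with the compared groups alone, and 0 to 1 with an animal left out. Over all genes that comparison called 1110 in the main fit and 555 with library size only. Calls over all genes with the compared groups alone or with an animal left out are not given here. Fewer libraries enter the fit with the compared groups alone or with an animal left out, and the cause of the losses was not tested. Ppm1k, Mccc2, Ivd and Hibch kept the direction of their difference from S in every alternative, as did the ratios. No paired analysis was possible because the groups share no animal numbers.

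Sign changes fell on members whose difference was near 0. In T vs. S, Bcat2 (−0.0034) came to 0.0019 with DESeq2, 0.0030 without Rn45s and 0.0047 with the compared groups alone. Bckdha (0.0022) came to −0.0039 with limma-voom, −0.024 with upper-quartile scaling, −0.039 with library size only, −0.0069 with at least 10 counts in every library and −0.0019 on the deposited values. Mccc1 came to −0.0094 and −0.028 with upper-quartile and library size scaling. In A + T vs. T, upper-quartile scaling gave 0.0085 for Bcat2, 0.015 for Bckdha, 0.0019 for Bckdk, 0.011 for Dbt and 0.034 for Hibch, and library size gave 0.0088 for Hibch. Bckdhb came to −0.015 in A + T vs. S with library size only.

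With an animal left out, T vs. S ranged from −0.076 to 0.060 for Bcat2, −0.075 to 0.092 for Bckdha, −0.0041 to 0.12 for Bckdhb and −0.023 to 0.085 for Mccc1. A + T vs. T ranged from −0.10 to 0.036 for Bcat2, −0.12 to 0.047 for Bckdha, −0.12 to 0.0078 for Bckdhb, −0.015 to 0.12 for Ppm1k, −0.088 to 0.035 for Dbt, −0.087 to 0.11 for Ivd, −0.14 to 0.048 for Mccc1 and −0.059 to 0.084 for Hibch. A + T vs. S ranged from −0.091 to 0.031 for Bcat2, −0.030 to 0.047 for Bckdhb and −0.12 to 0.072 for Mccc1.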
